A study of Homo sapiens with 12 samples.

Results

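Cisplatin and the other platinum drugs kill cells by binding DNA and linking neighbouring bases, or the opposite strands, to each other. Cells remove the links within a strand by nucleotide excision repair, and unhook links between strands with the Fanconi proteins, after which translesion polymerases and homologous recombination rebuild the DNA. Mismatch repair proteins and the ATR-CHEK1 checkpoint sense the damage and tie it to arrest or death. The mRNAs of 35 such genes were followed here, each chosen by its gene name on the array, and all 35 were found among 24857 genes tested. They fall into 12 genes of nucleotide excision repair (ERCC1, ERCC2, ERCC3, ERCC4, ERCC5, ERCC6, ERCC8, XPA, XPC, DDB1, DDB2 and RAD23B), 9 of the Fanconi pathway (FANCA, FANCC, FANCD2, FANCE, FANCF, FANCI, FANCL, FANCM and SLX4), 6 of homologous recombination (BRCA1, BRCA2, PALB2, RAD51C, XRCC2 and XRCC3), 4 of translesion synthesis (REV1, REV3L, MAD2L2 and POLH), 2 of mismatch repair (MSH6 and PMS2) and 2 of the damage checkpoint (ATR and CHEK1).

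Total RNA of 3 human lung adenocarcinoma cell lines was measured on 12 one-colour arrays. The lines were A549, PC14 and PC14CDDP, the last being a cisplatin-resistant derivative of PC14, and no drug is named in the treatment of any of these cultures. Each line was transfected at 25 nM with premiR-197 (a precursor that supplies miR-197), its negative control AllStar-NC, LNA-miR-197 (a locked nucleic acid inhibitor of miR-197) or its control LNA-miR-NC, with 1 array for each combination. A line was therefore seen on 4 arrays that carry different oligonucleotides, and each oligonucleotide on 3 arrays of different lines. All cells had been transfected, and no array of untransfected cells was analysed here.

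Between 58.6% and 65.3% of spots were well above background on each array, and no spot was saturated. A549 lay on a slide of its own, PC14 and PC14CDDP lay on different rows of another slide, and each oligonucleotide kept 1 column, so that line and slide position, or oligonucleotide and column, cannot be told apart. Of 6 epithelial markers, the 4 keratins KRT7, KRT8, KRT18 and KRT19 were well above background on all 12 arrays, and EPCAM and CDH1, the surface markers of epithelium, on 4 arrays of A549, on 3 and 2 arrays of PC14 and on 0 of PC14CDDP. Of 5 markers of the lung lineage, SFTPC and NAPSA were so on all 12, NKX2-1 on every PC14 and PC14CDDP array but on 0 of A549, and SFTPB and SFTA3 on 0 of 12. Of 5 fibroblast markers, COL1A1 was well above background on all 12, COL3A1 on 1 PC14 array, and COL1A2, PDGFRB and DCN on 0. Of 3 endothelial markers, CDH5 and VWF were so on all 12, and PECAM1 on 4 arrays of PC14, on 1 of A549 and on 0 of PC14CDDP. The leukocyte markers PTPRC and CD14 were so on all 12, and CD3E on 3 arrays of A549 and on 2 of each other line. Summed over the epithelial markers, the signal was 696 to 767 times an array's 75th percentile in A549, 159 to 231 in PC14 and 164 to 234 in PC14CDDP. The summed signal of the endothelial markers was 0.407 to 0.646 in PC14 against 0.144 to 0.196 in PC14CDDP and 0.155 to 0.219 in A549. The sum of the fibroblast markers was 0.263 to 1.09 in A549, 0.0673 to 0.194 in PC14 and 0.0559 to 0.104 in PC14CDDP. Any part of these marker differences in the results was not tested.

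Some sequences matter for what follows. The labels name miR-197 without its arm, so both mature forms in RefSeq (GRCh38.p14, chromosome 1, plus strand) are given, with the seed, bases 2 to 8, in capitals. The -3p form lies at 109598940 to 109598961 and the -5p form at 109598901 to 109598923.
hsa-miR-197-3p: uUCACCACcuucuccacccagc
hsa-miR-197-5p: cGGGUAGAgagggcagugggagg

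The array carries 59 different sequences for the 35 genes, and 17 genes have more than 1. Every gene is described by the sequence with the highest mean signal, and for all 35 this sequence was well above background on all 12 arrays. The sequences of FANCA and FANCF gave opposite answers between PC14CDDP and PC14, while those of ERCC1 gave the same, and the first 30 of their 60 bases are shown with no capitals, in the 5′ to 3′ direction of the transcript (hg19, minus strand). The FANCA sequences start at 89804013 (the sequence used), 89877116 and 89864767 on chromosome 16. The FANCF sequences start at 22646233 (used) and 22644733 on chromosome 11, and those of ERCC1 at 45918124 (used) and 45917222 on chromosome 19.
FANCA used: atgagggcctcgtttattaagatctttaaa
FANCA second: tttattggcacacagtatgttctcccgtct
FANCA last: tgtgttgtaccgttcggtacttttactgaa
FANCF used: tagtggtgcatttaggaaaagacaagtttt
FANCF second: attctgtggtacaacccaggggtaaactat
ERCC1 used: aggcctatgagcagaaaccagcggacctcc
ERCC1 second: tctgaccaccgtgaagtcagtcaacaaaac

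The first comparison asks how the resistant line differs from its parent. In PC14CDDP, 18 of the 35 genes were higher than in PC14 and 6 were lower, at an adjusted p under 0.05, and 11 were not called. The 18 include FANCA and FANCF, each of which had another sequence called lower, as described below. Across all genes tested, 25.1% were called higher and 23.3% lower, so these lines differ widely, while among the repair genes 51.4% were higher and 17.1% lower. The median log2 difference was 0.56 over the 35 genes and 0.04 over all genes. Since the repair genes are all well above background everywhere, the brighter genes are the closer reference. Among the 18489 genes well above background on all 12 arrays, 31.4% were called higher and 25.5% lower, and in that fit 19 of the 35 were higher and 6 lower. Although they were called, ERCC6, FANCF and POLH had overlapping arrays in PC14CDDP and PC14.

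**Figure D1:**
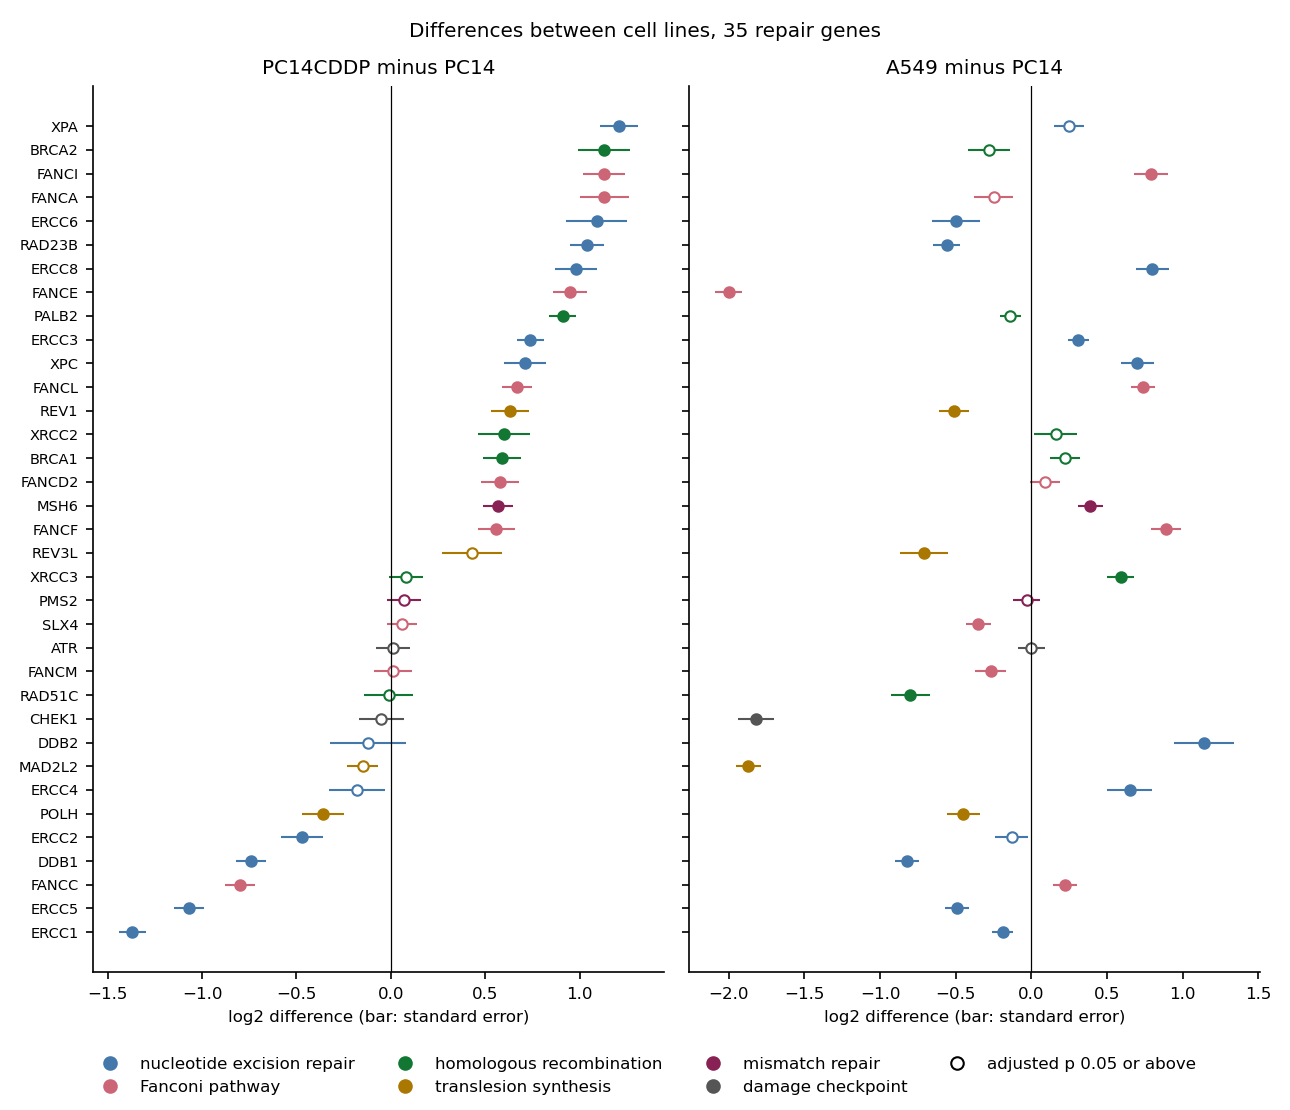
Log2 difference (horizontal axis) of each of the 35 repair genes between PC14CDDP and PC14 (left) and between A549 and PC14 (right), coloured by role, with the standard error as a bar and open circles where the adjusted p was 0.05 or above. On the left, 18 filled points lie to the right of 0 and 6 to the left, from ERCC1 at -1.37 to XPA at 1.21, while FANCE, MAD2L2 and CHEK1 stand far to the left on the right-hand side, between -2.0 and -1.82.

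Nucleotide excision repair split into opposing groups. Of its 12 genes, 6 were higher in PC14CDDP (XPA, ERCC6, RAD23B, ERCC8, ERCC3 and XPC) and 4 were lower (ERCC1, ERCC5, DDB1 and ERCC2), with ERCC4 and DDB2 not called. XPA had the largest rise, and 2 genes for nuclease subunits, ERCC1 and ERCC5, had the largest falls. In every value sentence below, levels are log2 of the signal relative to the array's 75th percentile, in the order premiR-197, AllStar-NC, LNA-miR-197 and LNA-miR-NC.

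ERCC1, which with ERCC4 (XPF) forms the nuclease that cuts 5′ of a lesion, had levels of 2.33, 2.46, 2.13 and 2.28 in PC14CDDP, 3.60, 3.84, 3.60 and 3.67 in PC14 and 3.48, 3.64, 3.44 and 3.38 in A549. The resistant line was the lowest on every array, and the parent was 2.59-fold higher (log2 difference -1.37, SE 0.07, adjusted p = 3.51e-06). The difference within each transfection ran from -1.47 to -1.26, and the second ERCC1 sequence gave -1.55. The partner gene ERCC4 had levels of -2.06, -2.19, -3.17 and -1.99 in PC14CDDP and -2.11, -2.13, -2.37 and -2.07 in PC14, which overlap (log2 difference -0.18, SE 0.15, adjusted p = 0.353). A second ERCC4 sequence was higher in PC14CDDP by 0.50 (adjusted p = 0.00731), so the direction for ERCC4 depends on the sequence.

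ERCC5 (XPG), the nuclease that cuts 3′ of a lesion, had levels of 0.36, 0.58, 1.04 and 0.78 in PC14CDDP, 1.33, 1.76, 2.01 and 1.92 in PC14 and 0.92, 1.09, 1.72 and 1.31 in A549. PC14 lay above PC14CDDP on every array (log2 difference -1.07, SE 0.08, adjusted p = 2.79e-05). DDB1, an adaptor of the ubiquitin ligase that DDB2 brings to lesions, had levels of 4.44, 4.54, 4.36 and 4.41 in PC14CDDP against 5.21, 5.20, 5.23 and 5.08 in PC14 (log2 difference -0.74, SE 0.08, adjusted p = 0.000103). Its level in A549 was 4.42, 4.43, 4.40 and 4.18, so that PC14 stood above both other lines. ERCC2 (XPD), a helicase of the general transcription factor TFIIH, had levels of -1.40, -1.43, -1.15 and -1.30 in PC14CDDP against -0.83, -0.94, -0.80 and -0.83 in PC14 (log2 difference -0.47, SE 0.11, adjusted p = 0.00819). ERCC3 (XPB), the other TFIIH helicase, went the opposite way (0.74, SE 0.07, adjusted p = 9.37e-05), with PC14CDDP between 1.25 and 1.54 and PC14 between 0.38 and 0.78.

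XPA, the scaffold that checks the damage and positions the nucleases, had the largest rise, with levels of 1.28, 1.19, 1.64 and 1.11 in PC14CDDP, 0.04, 0.14, 0.14 and 0.07 in PC14 and 0.20, 0.31, 0.47 and 0.39 in A549. The lowest PC14CDDP array was well above the highest array of either other line, and PC14CDDP was 2.31-fold higher than PC14 (log2 difference 1.21, SE 0.10, adjusted p = 3.75e-05). A second XPA sequence gave 1.46. ERCC6 (CSB), which with ERCC8 (CSA) starts repair at stalled RNA polymerase, had levels of -1.25, -1.25, 0.51 and -1.15 in PC14CDDP, -2.14, -2.27, -1.12 and -1.98 in PC14 and -2.71, -2.70, -1.71 and -2.37 in A549. Its difference from PC14 was 1.09 (SE 0.16, adjusted p = 0.000633), but the LNA-miR-197 array was high in each line, and the PC14 array with LNA-miR-197 reached the range of PC14CDDP. Without the LNA-miR-197 array of PC14CDDP the difference was 0.90 (adjusted p = 0.000221). ERCC8 rose by 0.98 (SE 0.11, adjusted p = 0.000211), from between -1.0 and -0.80 in PC14 to between -0.21 and 0.38 in PC14CDDP.

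The global-genome damage sensors XPC and RAD23B, which act as a complex, were also higher. RAD23B differed by 1.04 (SE 0.09, adjusted p = 4.96e-05), with PC14CDDP between 1.88 and 2.32 and PC14 between 0.99 and 1.18, and XPC by 0.71 (SE 0.11, adjusted p = 0.000822), with 0.33 to 0.59 against -0.30 to -0.18. DDB2, the sensor of ultraviolet lesions and a target of p53, had levels of 3.56, 2.80, 2.85 and 2.90 in PC14CDDP and 3.61, 3.06, 2.92 and 3.0 in PC14. These overlapped (log2 difference -0.12, SE 0.20, adjusted p = 0.654), and in both lines the premiR-197 array was the highest.

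**Figure D2:**
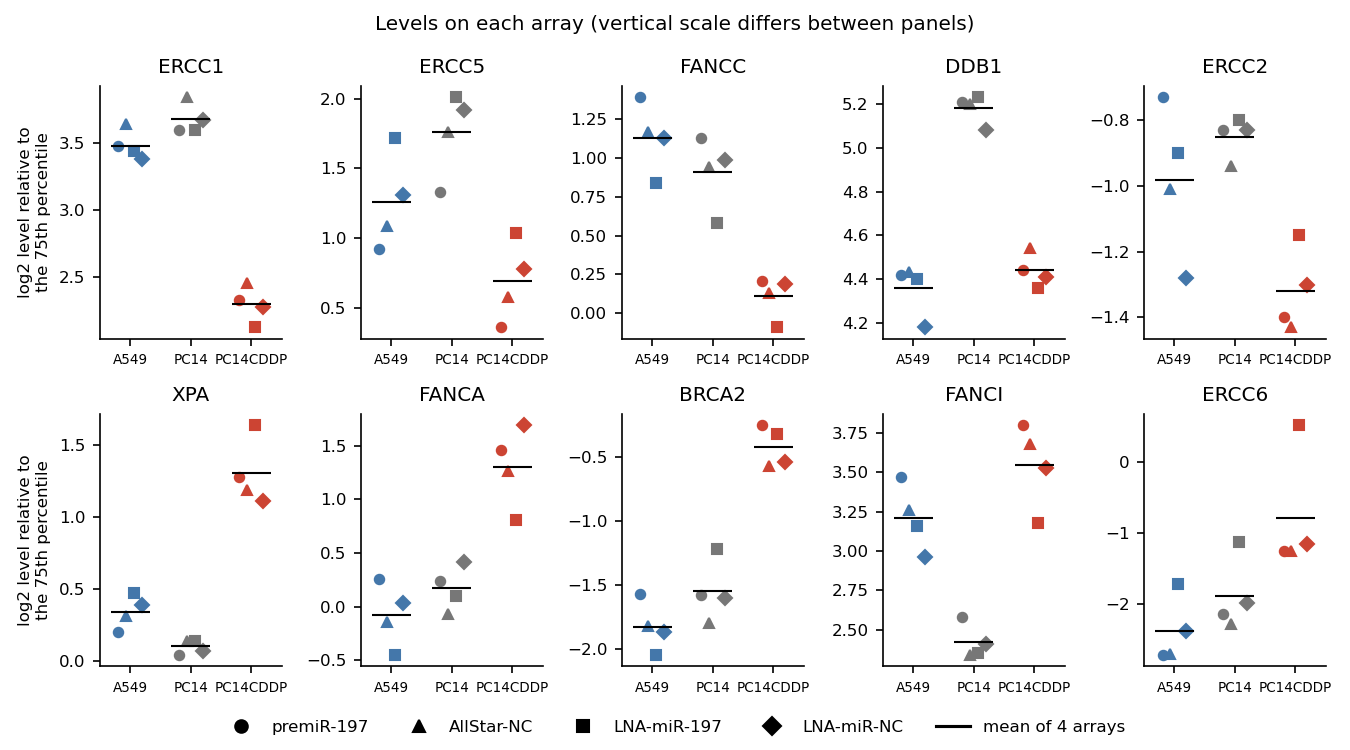
Level on each of the 12 arrays (vertical axis, log2 of the signal relative to the 75th percentile, with its own scale in each panel) for the 10 repair genes named from PC14CDDP against PC14, which are the 5 called genes with the largest differences in each direction. Symbols mark the transfection, and bars mark the mean of the 4 arrays of a line. PC14CDDP is lowest for ERCC1 and FANCC and highest for XPA, FANCA and BRCA2 on every array, while 1 ERCC6 array of PC14CDDP stands at 0.51, far above the other 3.

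In the Fanconi pathway, 6 of 9 genes were higher in PC14CDDP by the sequences used (FANCA, FANCI, FANCE, FANCL, FANCD2 and FANCF). FANCC was lower, and FANCM and SLX4 were not called. For FANCA and FANCF the direction depends on the sequence. FANCD2 and FANCI form the clamp that FANCL, the ubiquitin ligase of the pathway, marks on damaged DNA, and all 3 were higher. FANCI had levels of 3.80, 3.68, 3.18 and 3.53 in PC14CDDP, 2.58, 2.34, 2.35 and 2.41 in PC14 and 3.47, 3.26, 3.16 and 2.96 in A549. PC14 was the lowest line on every array, and PC14CDDP exceeded it by 1.13 (SE 0.11, adjusted p = 7.95e-05). FANCD2 differed by 0.58 (SE 0.10, adjusted p = 0.00125), with 0.60 to 1.0 in PC14CDDP and 0.04 to 0.42 in PC14, and its other sequences gave 0.58 and 0.85. FANCD2 has close pseudogene copies, and their share of its signal was not tested. FANCL differed by 0.67 (SE 0.08, adjusted p = 0.000262), with 3.06 to 3.51 against 2.30 to 2.71.

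The core complex, which activates that ligase, was less uniform. FANCE, which links the core complex to FANCD2, had levels of 4.94, 4.86, 4.95 and 4.76 in PC14CDDP, 3.84, 3.75, 4.17 and 3.96 in PC14 and 1.97, 1.74, 2.03 and 1.98 in A549, so the 3 lines were apart on all arrays. PC14CDDP was above PC14 by 0.95 (SE 0.09, adjusted p = 6.91e-05) and above A549 by 2.95, which is 7.71-fold (SE 0.09, adjusted p = 4.25e-08). FANCC, another core subunit, had levels of 0.21, 0.13, -0.09 and 0.19 in PC14CDDP, 1.13, 0.94, 0.58 and 0.99 in PC14 and 1.39, 1.17, 0.84 and 1.13 in A549. PC14CDDP was the lowest line (log2 difference from PC14 -0.80, SE 0.08, adjusted p = 7.12e-05), and a second FANCC sequence was further apart (-2.15, adjusted p = 1.23e-05).

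FANCA and FANCF, also core subunits, cannot be given a direction for the whole gene. The FANCA sequence used, spotted 10 times on each array, had levels of 1.46, 1.26, 0.81 and 1.69 in PC14CDDP, 0.24, -0.07, 0.10 and 0.42 in PC14 and 0.26, -0.14, -0.45 and 0.03 in A549. This put PC14CDDP 1.13 above PC14 (SE 0.13, adjusted p = 0.000173). The second sequence gave 0.33 (adjusted p = 0.0121) and the last of the 3 -1.23 (adjusted p = 2.85e-05), and with the mean of all 3 the gene was no longer called (0.08, adjusted p = 0.491). The FANCF sequence used gave 0.56 (SE 0.10, adjusted p = 0.00203), with 1.15 to 1.62 in PC14CDDP and 0.44 to 1.17 in PC14, while the second gave -0.42 (adjusted p = 0.00399). These were the only genes of the 17 with several sequences that were called in opposite directions in this comparison, and for 13 of the 17 all sequences had the same sign. What sets the sequences of a gene apart, such as transcript forms, was not tested.

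**Figure D3:**
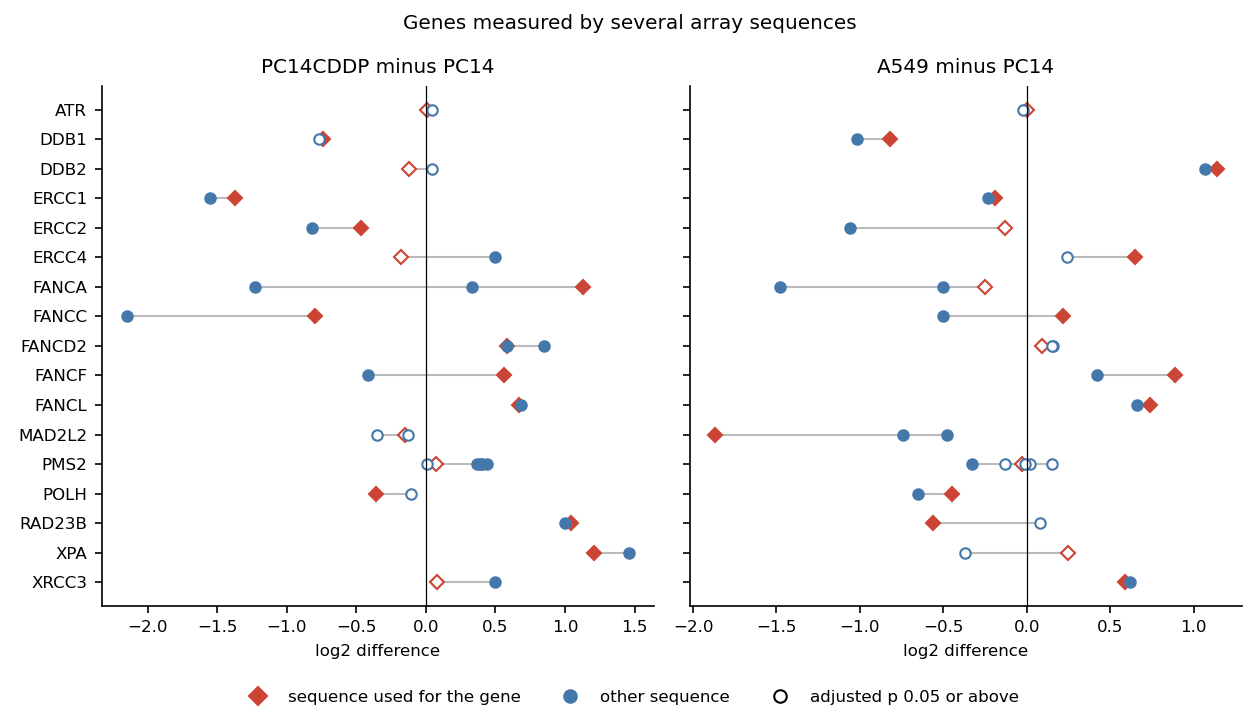
Log2 difference (horizontal axis) given by each array sequence of the 17 repair genes that have several, between PC14CDDP and PC14 (left) and between A549 and PC14 (right). Diamonds mark the sequence used for the gene, circles the others, and open symbols an adjusted p of 0.05 or above. FANCA spreads from -1.23 to 1.13 and FANCF from -0.42 to 0.56 on the left, while ERCC1, RAD23B and FANCL keep their sequences close together there.

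In homologous recombination 4 of 6 genes were higher in PC14CDDP and none was lower. BRCA2, a central mediator of homologous recombination, had levels of -0.25, -0.57, -0.32 and -0.54 in PC14CDDP, -1.58, -1.80, -1.22 and -1.60 in PC14 and -1.57, -1.82, -2.05 and -1.87 in A549. The groups did not overlap, and PC14CDDP was 2.19-fold above PC14 (log2 difference 1.13, SE 0.14, adjusted p = 0.000257). PALB2, which joins BRCA2 to BRCA1, had levels of 0.07, 0.01, -0.15 and -0.02 in PC14CDDP against -0.75, -0.98, -1.14 and -0.87 in PC14 (0.91, SE 0.07, adjusted p = 3.02e-05). BRCA1 was higher by 0.59 (SE 0.10, adjusted p = 0.00148), with 2.28 to 2.59 against 1.74 to 1.96, and XRCC2, another recombination gene, by 0.60 (SE 0.14, adjusted p = 0.00753), with 0.29 to 0.90 against -0.33 to 0.26. The recombination genes RAD51C (-0.01, SE 0.13) and XRCC3 (0.08, SE 0.09) were not called, although a second XRCC3 sequence gave 0.50 (adjusted p = 0.0207). The XRCC3 sequence used had mean levels of 7.34 in PC14CDDP and 7.27 in PC14, against 2.28 and 1.78 for the second. What the brighter sequence measures was not tested, so the value of XRCC3 is uncertain.

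Among the translesion genes, REV1, the scaffold of the polymerases, was higher by 0.63 (SE 0.10, adjusted p = 0.000873), with -0.12 to 0.55 in PC14CDDP and -0.57 to -0.33 in PC14. REV3L, the catalytic subunit of polymerase zeta, missed the threshold (0.43, SE 0.16, adjusted p = 0.0554), although its PC14CDDP arrays, 1.32 to 2.07, all lay above those of PC14, 1.0 to 1.28. The accessory subunit MAD2L2 (REV7) was not called (-0.15, SE 0.08, adjusted p = 0.168). POLH, the polymerase that copies past platinum links within a strand, was lower by 0.36 (SE 0.11, adjusted p = 0.0292) with overlapping arrays, and its second sequence was not called (-0.11, adjusted p = 0.575).

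Of the mismatch repair genes, MSH6, which takes part in mismatch recognition, was higher by 0.57 (SE 0.08, adjusted p = 0.000781), with 5.05 to 5.24 in PC14CDDP and 4.48 to 4.65 in PC14. PMS2, which acts after a mismatch is recognised, was not called (0.07, SE 0.09, adjusted p = 0.574). Its gene has near-identical pseudogene copies, and of its 6 array sequences 4 were called higher, between 0.37 and 0.44, so its value is uncertain. The kinases of the checkpoint did not pass the test either, with 0.01 (SE 0.09, adjusted p = 0.927) for ATR and -0.05 (SE 0.12, adjusted p = 0.775) for CHEK1.

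The other genes of the same pathways were described through fixed lists. Of 90 measured, 52 (57.8%) were higher in PC14CDDP and 12 (13.3%) lower, with a median difference of 0.41. Over all genes, 25.1% were higher and 23.3% lower, with a median of 0.04. By pathway, 13 of 24 further nucleotide excision repair genes were higher and 6 lower, 8 of 12 Fanconi genes higher and 1 lower, and 14 of 22 recombination genes higher and 3 lower. Of 9 translesion genes 3 were higher and 1 lower, of 6 mismatch repair genes 5 higher and none lower, and of 17 checkpoint genes 9 higher and 1 lower. Nearest to the shares of all genes were the rises of translesion genes (33.3%) and the falls of nucleotide excision repair genes (25.0%). The largest rises were in RMI1, a subunit of the complex that dissolves recombination intermediates (1.81, SE 0.08, adjusted p = 1.19e-06), in the cell cycle phosphatase CDC25A (1.47, SE 0.15, adjusted p = 0.00011) and in CETN2, which binds XPC (1.36, SE 0.13, adjusted p = 7.84e-05). The largest falls were in FAAP100, a core complex partner (-0.96, SE 0.20, adjusted p = 0.0042), in the ligase LIG3 (-0.92, SE 0.08, adjusted p = 3.9e-05) and in the nuclease MUS81 (-0.83, SE 0.10, adjusted p = 0.000211).

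Many Fanconi and recombination genes are transcribed most in S phase, and genes of DNA replication and division moved with them. Of 20 such markers, 12 were higher in PC14CDDP and 2 lower, with a median of 0.36, against 10 higher and 1 lower of the 15 Fanconi and recombination genes described here, with a median of 0.59. Of these, 4 were named after their values were seen. RRM2, a subunit of ribonucleotide reductase, was higher by 1.21 (adjusted p = 0.00021) and the S phase cyclin CCNA2 by 0.84 (adjusted p = 0.000914), the helicase subunit MCM5 was lower (-0.56, adjusted p = 0.00798), and the division marker MKI67 was not called (0.18, adjusted p = 0.183). The part of the cell cycle in the repair gene differences was not tested.

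E2F factors drive S phase genes, and their binding letters were sought in the promoters, from 250 bases before to 50 after the start, of the 34 repair genes found in the RefSeq table (GRCh38.p14). The words TTTCCCGC, TTTGGCGC and TTTCGCGC, on either strand, occurred in 5 of the 34, or 14.7%, against 4.18% of 13199 promoters of tested genes. Of these, FANCD2, MSH6, XPC and XRCC2 were higher in PC14CDDP and FANCC was lower. The word TTTGAA, found in some promoters of genes used in division, occurred in 1 of the 34 (FANCC) and in 10.5% of the promoters of tested genes. The windows of FANCD2 (chr3:10026187-10026486, plus strand) and XRCC2 (chr7:152676092-152676391, minus strand) are shown as examples, picked from the genes called higher. The word stands in capitals and reads on the other strand as TTTCCCGC. Whether E2F factors bind these words, or have a part in the differences, was not tested.
FANCD2 promoter: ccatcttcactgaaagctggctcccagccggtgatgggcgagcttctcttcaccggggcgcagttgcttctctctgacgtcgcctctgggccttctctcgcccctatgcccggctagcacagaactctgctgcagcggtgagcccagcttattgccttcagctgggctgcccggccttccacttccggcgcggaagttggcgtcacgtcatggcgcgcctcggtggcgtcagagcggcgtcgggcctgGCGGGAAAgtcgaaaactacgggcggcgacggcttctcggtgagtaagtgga
XRCC2 promoter: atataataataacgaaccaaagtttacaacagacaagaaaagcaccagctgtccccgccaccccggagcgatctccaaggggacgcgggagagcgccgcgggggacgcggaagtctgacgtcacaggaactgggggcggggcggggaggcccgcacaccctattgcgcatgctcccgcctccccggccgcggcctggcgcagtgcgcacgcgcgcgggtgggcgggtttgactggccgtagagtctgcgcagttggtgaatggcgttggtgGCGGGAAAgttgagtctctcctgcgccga

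Position on the chromosome was examined by the genes within 5 Mb of each repair gene, taken from the hg19 coordinates of the array. The median difference of these neighbours between PC14CDDP and PC14 ran from -1.15 around ERCC5 to 0.56 around REV3L. Of 44 neighbours of ERCC5 on chromosome 13, 65.9% were called lower, and ERCC5 itself was at -1.07. ERCC1 and ERCC2 lie side by side on chromosome 19, where 39.2% of the 329 neighbours of ERCC1 were lower and 10.6% higher. Their median was -0.15, and ERCC1 itself was at -1.37. The neighbours of DDB1 on chromosome 11 were lower in 44.4% of cases (median -0.29). The neighbours of RAD23B were higher in 49.1% of cases (median 0.42) and those of ERCC6 in 43.4% (median 0.34). FANCI and FANCE rose where the median of the neighbours was 0.06 and 0.08, and FANCC fell (-0.80) where it was 0.14. DNA copy number was not measured here, and its part in these differences was not tested.

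A549 and PC14 are separate tumour lines, and their comparison shows how far these genes vary between lines that share no descent. Of the 35 genes, 11 were higher in A549 and 14 lower, or 31.4% and 40.0%, where 35.8% and 32.4% of all genes were called higher and lower. The median was -0.13 over the repair genes and 0.08 over all genes. The largest differences were those of FANCE, MAD2L2 and CHEK1, all lower in A549.

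FANCE, whose levels are given above, was 4.0-fold lower in A549 than in PC14 (log2 difference -2.0, SE 0.09, adjusted p = 4.03e-07). MAD2L2, which bridges REV1 to polymerase zeta and also limits the resection of broken ends, had levels of 1.17, 1.13, 1.15 and 0.96 in A549, 3.1, 3.01, 2.91 and 2.88 in PC14 and 2.97, 2.84, 2.65 and 2.85 in PC14CDDP. A549 stood far below both other lines (log2 difference from PC14 -1.87, SE 0.08, adjusted p = 3.72e-07). A second MAD2L2 sequence gave -0.48 (adjusted p = 0.0284), and the last was not well above background on any A549 array. CHEK1, the effector kinase of ATR, had levels of 1.28, 1.35, 1.10 and 1.12 in A549, 3.0, 2.85, 3.34 and 2.95 in PC14 and 3.20, 2.82, 3.07 and 2.85 in PC14CDDP. It was 3.53-fold lower in A549 than in PC14 (log2 difference -1.82, SE 0.12, adjusted p = 4.51e-06). Of the 94 neighbours of CHEK1, 60.6% were lower in A549 (median -1.09), as were 57.8% of the 232 neighbours of FANCE (median -0.68) and 41.9% of the 124 of MAD2L2 (median -0.19).

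RAD51C had levels of 3.08, 3.07, 3.12 and 2.92 in A549 against 3.53, 3.94, 4.0 and 3.93 in PC14 (-0.80, SE 0.13, adjusted p = 0.000664). DDB1 differed by -0.82 (SE 0.08, adjusted p = 2.49e-05), with A549 at 4.18 to 4.43 and PC14 at 5.08 to 5.23. All 4 translesion genes were lower in A549, with REV3L at -0.71 (adjusted p = 0.00407), REV1 at -0.51 (adjusted p = 0.00158) and POLH at -0.45 (adjusted p = 0.00775) beside MAD2L2. SLX4, the scaffold of nucleases that unhook links, was at -0.35 (adjusted p = 0.00421).

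DDB2 was the gene most above PC14 in A549, with levels of 4.01, 4.27, 4.41 and 4.47 against 3.61, 3.06, 2.92 and 3.0 (log2 difference 1.14, SE 0.20, adjusted p = 0.00103), and its second sequence gave 1.07. XPC, a p53 target as DDB2 is, was higher by 0.70 (SE 0.11, adjusted p = 0.000488). It was not called between A549 and PC14CDDP (-0.01, adjusted p = 0.9445), so both of these lines stood above PC14. Which other repair genes here are p53 targets was not examined. Of 15 p53 targets outside repair, 12 (80.0%) were higher in A549 and none lower, with a median of 1.60, where 35.8% of all genes were higher. Among the 12 were CDKN1A (2.99, adjusted p = 3.97e-05) and GDF15 (5.87, adjusted p = 5.41e-06), both named after their values were seen. Between PC14CDDP and PC14, 7 of these 15 (46.7%) were higher and 3 (20.0%) lower, against 25.1% and 23.3% of all genes. There CDKN1A was at 2.34 (adjusted p = 0.000338) and GDF15 at -2.92 (adjusted p = 0.00059). The p53 state of the lines was not measured.

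FANCF was higher in A549 by 0.89 (SE 0.10, adjusted p = 8.19e-05), at 1.75, 1.59, 1.57 and 1.59 against 1.17, 0.44, 0.54 and 0.77, and here its second sequence had the same sign (0.42, adjusted p = 0.00262). ERCC8 was higher by 0.80 (SE 0.11, adjusted p = 0.000339), with -0.19, 0.15, -0.03 and -0.24 against -1.0, -0.80, -0.86 and -0.84. FANCI was higher by 0.79 (SE 0.11, adjusted p = 0.000263) and FANCL by 0.74 (SE 0.08, adjusted p = 7.19e-05), with 3.21, 3.42, 3.21 and 3.31 in A549 and 2.30, 2.71, 2.60 and 2.58 in PC14. These lines did not overlap for any of the 4 genes. FANCC was the gene whose sequences were called in opposite directions in this comparison (0.22 and -0.50).

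The third pair, A549 against PC14CDDP, shares its arrays with both comparisons above. Here 8 of the 35 genes were higher in A549 and 19 lower, or 22.9% and 54.3%, against 36.5% and 34.0% of all genes. Beside FANCE, the genes most below PC14CDDP were CHEK1 (-1.77, SE 0.12), MAD2L2 (-1.72, SE 0.08), RAD23B (-1.60, SE 0.09) and ERCC6 (-1.59, SE 0.16). Those most above it were DDB2 (1.26, SE 0.20), ERCC1 (1.18, SE 0.07) and FANCC (1.02, SE 0.08).

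The order of the lines follows from the 3 pairs together. The reference here is all genes, which include dimmer ones, while the repair genes are all bright. In PC14CDDP against PC14, all genes were called higher in 25.1% of cases and lower in 23.3%. Among genes well above background on all arrays these shares were 31.4% and 25.5%. Shares of each order among the brighter genes are not given, so the part of brightness in the contrasts below was not tested. The same holds for the A549 pairs above. PC14CDDP was called above both other lines for 13 of the 35 genes (37.1%), against 16.1% of all genes. These were ERCC3, ERCC6, XPA, RAD23B, FANCA, FANCD2, FANCE, FANCI, BRCA1, BRCA2, PALB2, XRCC2 and REV1. It was below both for 4 genes (ERCC1, ERCC2, ERCC5 and FANCC), or 11.4%, against 12.9% of all genes. A549 was below both other lines for 10 genes, or 28.6%, against 24.2% of all genes, and above both for 5 (ERCC4, DDB2, FANCC, FANCF and XRCC3), or 14.3%, against 27.3%. All 3 pairs were called apart for 10 genes, ERCC1, ERCC3, ERCC5, ERCC6, RAD23B, FANCC, FANCE, FANCF, FANCI and REV1. That was 28.6% of the 35 genes, close to the 27.0% of all genes. For some of these genes the order depends on the sequence. A second XRCC3 sequence was not called between A549 and PC14CDDP (0.12, adjusted p = 0.476), nor was a second ERCC4 sequence (-0.26, adjusted p = 0.073), and a second FANCC sequence put A549 below PC14 (-0.50, adjusted p = 0.0139). A second RAD23B sequence was not called between A549 and PC14 (0.08, adjusted p = 0.425), and FANCA turned in PC14CDDP as described above. With a second ERCC2 sequence, A549 and PC14CDDP were not called apart (-0.24, adjusted p = 0.1775). No pair was called for PMS2 and ATR by the sequences used, or 5.71%, against 15.7% of all genes. ATR had a mean level of 2.0 ± 0.14 (SD, n = 4) in A549. Its mean was 2.0 ± 0.15 in PC14 and 2.01 ± 0.20 in PC14CDDP, closer to each other than the arrays within a line.

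The transfections ask whether more or less miR-197 changes these genes. With premiR-197 against AllStar-NC, limma called none of the 35 genes, where 54 of all genes tested, 0.217%, were called, and the smallest adjusted p among the 35 was 0.141. At an unadjusted p under 0.05 there were 5 of the 35, against 16.2% of all genes, and the methods' t-test passed 1 (PMS2) at that level. Some genes moved in the same direction in all 3 lines. The largest mean log2 ratios among them were 0.44 for FANCF (0.16 in A549, 0.72 in PC14 and 0.42 in PC14CDDP), 0.35 for REV3L (0.18, 0.24 and 0.63) and 0.30 for FANCA (0.41, 0.31 and 0.19). The second FANCF sequence was at -0.24 and the other FANCA sequences at -0.33 and -0.01, so these signs depend on the sequence. Below 0 the largest means were -0.36 for FANCL (-0.21, -0.40 and -0.45), -0.29 for ERCC8 (-0.34, -0.19 and -0.33) and -0.27 for ERCC5 (-0.17, -0.43 and -0.22). DDB2 was at 0.55 in PC14 and 0.77 in PC14CDDP but at -0.26 in A549, and RAD51C was at -0.41 in PC14, -0.69 in PC14CDDP and 0.01 in A549. With 1 array per line and transfection, a difference in response between lines was not tested.

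With LNA-miR-197 against LNA-miR-NC, 2 of the 35 genes were called, both higher, where 7.73% of all genes were called. The log2 ratio of ERCC6 was 0.67 for A549, 0.86 for PC14 and 1.66 for PC14CDDP, with a mean of 1.06 (SE 0.18, adjusted p = 0.0222). On every line its LNA-miR-197 array was the highest of the 4, and its ratio under premiR-197 was near 0 (mean 0.04, SE 0.18). POLH had ratios of 0.75, 0.33 and 0.68, with a mean of 0.59 (SE 0.13, adjusted p = 0.0373). Its LNA-miR-197 array was again the highest in each line (-0.04 in A549, 0.06 in PC14 and -0.12 in PC14CDDP), and the second POLH sequence gave 0.39 (adjusted p = 0.195). Both calls were lost when any 1 of the lines was left out, with adjusted p from 0.0885 to 0.202 for ERCC6 and from 0.105 to 0.276 for POLH.

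The falls after LNA-miR-197 did not pass the test. ERCC4 had ratios of -0.54, -0.30 and -1.18 in A549, PC14 and PC14CDDP (mean -0.67, SE 0.17, adjusted p = 0.0516), FANCA -0.48, -0.31 and -0.88 (mean -0.56, SE 0.15, adjusted p = 0.0574), FANCC a mean of -0.33 (adjusted p = 0.0597) and ATR -0.34, -0.19 and -0.46 (mean -0.33, SE 0.10, adjusted p = 0.0805). For ERCC4 the second sequence was at -0.57 (adjusted p = 0.0413). The second FANCC sequence had the opposite sign (0.33, adjusted p = 0.241), and the other FANCA sequences were at -0.33 and 0.12, so no direction is given for these genes. REV1 was at 0.34 (SE 0.11, adjusted p = 0.0941). The controls LNA-miR-NC and AllStar-NC, which set the background of an oligonucleotide that does not target miR-197, called none of the 35 genes by limma against each other, and 0.632% of all genes. There were 2 at an unadjusted p under 0.05, ERCC1 (-0.20) and FANCA (0.36), and the methods' t-test passed 1 (ATR) at that level. The share of all genes at that level is not given here, so these counts are not read as a result about the repair genes. Log2 ratios between the controls ran from -0.20 to 0.36, against -0.67 to 1.06 with the inhibitor and -0.36 to 0.44 with the precursor, which shares the AllStar-NC arrays.

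**Figure D4:**
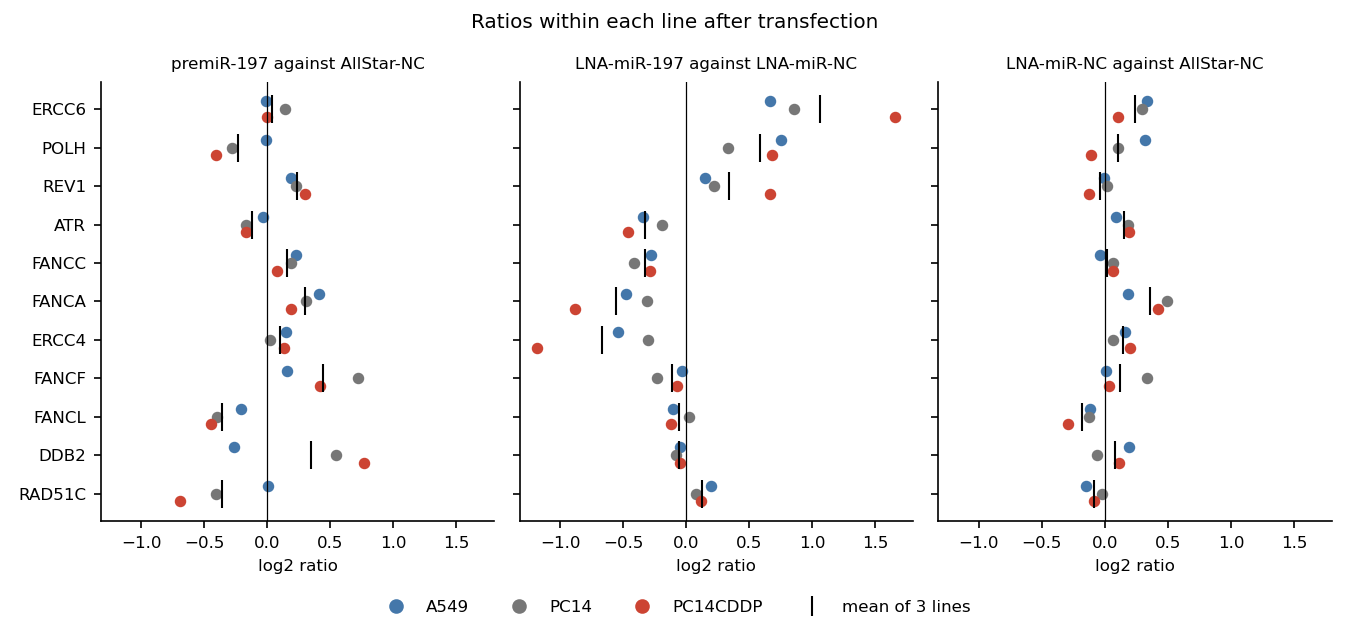
Log2 ratio within each cell line (points) and its mean over the 3 lines (black bars) for 11 repair genes, with premiR-197 against AllStar-NC (left), LNA-miR-197 against LNA-miR-NC (middle) and LNA-miR-NC against AllStar-NC (right), on a shared horizontal axis. ERCC6 lies between 0.67 and 1.66 and POLH between 0.33 and 0.75 with the inhibitor, while ERCC4 and FANCA lie to the left of 0 in all 3 lines.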

How the data were processed

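Cy3-labelled material from total RNA of 12 transfected cultures was hybridised to SurePrint G3 Human GE v2 arrays. The deposited intensity values are processed signals that the authors obtained with Agilent Feature Extraction 10.7.3.1 (hg19), background-corrected but not normalised between arrays, and the deposited series table holds the same intensity values. No column belonged to samples of other series (0). Here, log2 signals were set relative to the 75th percentile of each array, spots of 1 sequence were averaged without outlier spots, and sequences well above background on at least 3 of 12 arrays were kept (33714 of 50599, with 106 incomplete ones left out). A gene was represented by its sequence with the highest mean. Names were updated through RefSeq where the accession matched (55.7% of sequences).

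All 12 arrays were fitted with limma 3.58.1 (R 4.3.3) as cell line plus transfection, with empirical Bayes moderation and Benjamini-Hochberg adjustment over 24857 genes, and called at an adjusted p under 0.05. Scripts were tested on simulated data. The methods name Student's t-test in general, and it was run as an alternative. The 4 arrays of a line are cultures of 1 line, so p-values measure the spread between these arrays only, and their number limits the precision. Values on every array are given for genes called in PC14CDDP or A549 against PC14 with one of the 5 largest differences in either direction and for genes called after a transfection. Where under 3 were called, the 3 largest mean ratios in either direction with the same sign in all lines were named, as were, of the other repair genes, the 3 largest called differences in either direction. Members, lists and tests were chosen with earlier results of these data known. Python 3.11.15 with pandas 2.3.3 and matplotlib 3.10.9 made the tables and figures. Of the leukocyte markers, 1 and the sum that holds it are not reported here.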

Additional observations from a re-analysis of the deposited data

Results flagged for a closer look

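Each of 105 sets of 4 arrays (35 genes in 3 lines) was examined for an array far from the other 3, and 8 were found where chance gives about 5.25. Those with LNA-miR-197 were ERCC6 in PC14CDDP (0.51, the others between -1.25 and -1.15) and ERCC4 in PC14CDDP (-3.17, the others between -2.19 and -1.99). With premiR-197 they were DDB2 in PC14CDDP (3.56, the others 2.80 to 2.90), FANCF in A549 (1.75, the others 1.57 to 1.59) and in PC14CDDP (1.62, the others 1.15 to 1.22), and RAD51C in PC14 (3.53, the others 3.93 to 4.0) and in PC14CDDP (3.34, the others 3.94 to 4.06). With LNA-miR-NC it was DDB1 in A549 (4.18, the others 4.40 to 4.43). Of 70 pairs of a gene and a miR-197 transfection, 0 had ratios of 1.2-fold or more in opposite directions in different lines.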

How the results depend on the processing

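The number of repair genes called between lines stayed within 1.5 times the reported one under all alternatives run, at 20 to 25 for PC14CDDP against PC14 (24 reported), 19 to 26 for A549 against PC14 (25) and 22 to 28 for A549 against PC14CDDP (27). The transfection counts were less stable. They are given without the share of all genes called under each setting, so they are not read as results about the repair genes. With LNA-miR-197 (2 reported), quantile normalisation called 4, adding falls of ATR and FANCC. Normexp background correction, the filter on all 12 arrays and a trended robust prior each called 6, adding falls of ATR, ERCC4, FANCA and FANCC. With the mean of a gene's sequences the count stayed at 2, but a fall of ERCC4 (-0.62, adjusted p = 0.0435) stood in place of POLH (0.49, adjusted p = 0.074). Without a filter 1 was called, since POLH was lost (adjusted p = 0.0762), and 0 with only the arrays compared, with the methods' t-test after adjustment, without a term for the line, and without any 1 line (0 to 0). With premiR-197 (0 reported), normexp called 1 (FANCL, -0.38, adjusted p = 0.0484) and the methods' t-test without adjustment 1 (PMS2). Between the controls (0 reported), that t-test passed 1 (ATR). Of the named line differences, FANCA lost its call with the mean of its sequences (0.08) and ERCC6 without a transfection term (1.09, adjusted p = 0.0563). With the mean of the sequences, FANCC was at -1.48 and MAD2L2 in A549 at -1.03. None of the named differences reversed under the alternatives run, and causes were not tested. Except with the mean, these alternatives describe a gene by its brightest sequence. They could not show a change of sign between sequences, such as that of FANCA (-1.23 with its last sequence in PC14CDDP against PC14). The replicate numbers only follow the order of the samples and were not used to pair arrays. What matches arrays across lines is the transfection, and what matches them across transfections is the line. The reported fit holds both as terms. With 1 array per line and transfection, responses of single lines have no replicate.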
